A study of Bos taurus with 8 samples.

Results

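The genes described here are 10 regulators of the meiotic and mitotic cell cycle: the cyclins CCNB1, CCNB2, CCNA2, CCNE1 and CCNE2, the cyclin-dependent kinase CDK1, the mitotic kinases PLK1 and AURKA, and the oocyte kinases WEE2 and MOS. They were taken by symbol from a table of 16606 genes, all 10 were present, and all 10 reached the minimum mean level of 1 CPM (reads per 1000000 reads) needed for a test. Transcripts were measured by RNA sequencing in Bos taurus embryos at 2 stages, 4-cell and 8-cell, each as a control group and as a group carrying the RPL12 A148G edit, with 2 libraries per group and 8 in all. All embryos came from abattoir oocytes matured and fertilised in vitro with Holstein semen, and zygotes of the edited groups received PEmax (a prime editor, a Cas9 nickase joined to a reverse transcriptase) and its guide RNA by injection into the cytoplasm. Each library pooled 5 embryos, so variation between single embryos is not visible. The edited groups are called base edited in the titles although the protocol names prime editing, and the 4-cell samples carry oocytes as their source name. The labels do not say from where the position of the edit is counted, whether controls were injected, which fraction of alleles carried the edit, or whether cumulus cells had been stripped. Nothing in them says that the libraries of a group came from separate cultures, so the p-values measure the spread between these libraries, which may be technical.

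As background, entry into meiotic or mitotic M phase is driven by CDK1 bound to a B-type cyclin, which is held inactive by the WEE kinases and released by CDC25 phosphatases. Oocytes wait in metaphase of the second meiotic division under cytostatic factor, in which MOS acts through the MAP kinase cascade and EMI2 (FBXO43) restrains the anaphase-promoting complex, the ubiquitin ligase that destroys the cyclins. Until the embryonic genome is activated, which in cattle occurs mainly from about the 8-cell stage on, cleavage divisions run largely on transcripts stored in the egg, many of them kept with short poly(A) tails. WEE2 and MOS are transcripts of the germ line, whereas the other 8 members also serve somatic divisions.

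Each library held 33527531 to 35122409 reads on genes, and the members were covered by 170 reads (CCNE1, lowest library) to 244374 reads (AURKA, highest library), so counting error was small. The 2 libraries of a group were distinct, their reads giving a chi-square of 46.1 to 144 for each degree of freedom. RPL12, the edited gene, stood at 159 and 174 CPM in the 4-cell control libraries against 27.5 and 33.6 CPM in the edited ones, and at 96.3 and 97.6 against 14.1 and 11.9 CPM in 8-cell embryos. Of the oocyte and early embryo markers, 15 of 16 listed genes were in the table, all above 3 reads in at least 1 library. Their summed level was 6539.5 to 9093 CPM in 4-cell control and 13506 to 13657 CPM in 4-cell edited libraries. It was 11281 to 13708 CPM in 8-cell control and 17794 to 19665 CPM in 8-cell edited libraries. Of these 15 markers 4 rose (BMP15, DPPA3, GDF9 and ZAR1) and 1 fell (H1-8) with editing in 4-cell embryos. Of all genes 18.9% were called higher and 25.8% lower there. In 8-cell embryos 1 of the 15 rose (ZP3), where 1.08% of all genes were called higher. Of the cumulus and granulosa markers, from the somatic cells that surround the oocyte, 20 were listed and 18 tested. With editing 11 of these fell and 1 (HAS2) rose in 4-cell embryos, where 25.8% of all genes were called lower, and 4 fell in 8-cell embryos, where 14.5% were. Their summed level was 1314 to 1794 CPM in 4-cell control, 649 to 659.7 in 4-cell edited, 747 to 920.1 in 8-cell control and 662 to 666 in 8-cell edited libraries, and LHCGR had at most 3 reads in every library. The steroidogenic enzyme CYP11A1 stood at 227 and 201 CPM in 4-cell controls against 3.33 and 14.5 CPM in 4-cell edited embryos. At the 8-cell stage it stood at 29.1 and 133 against 12.7 and 4.97 CPM. STAR, CYP19A1 and FDX1 of the same list were not called with editing at either stage. STAR stood at 159 and 193 against 127 and 126 CPM in 4-cell and 154 and 143 against 174 and 213 CPM in 8-cell embryos. In pooled embryos a smaller number of cells of a type and less RNA per cell cannot be told apart, and CPM is a share of the library, so a rise of 1 class of transcripts lowers the others.

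Together the 10 regulators took 0.654% to 1.18% of the reads. Their summed level was 6831 ± 352 CPM (SD, n = 2) in 4-cell control, 7917 ± 1177 CPM in 4-cell edited, 9118 ± 503 CPM in 8-cell control and 11885 ± 27.8 CPM in 8-cell edited libraries. AURKA gave the largest part of these reads in every library. Levels of different genes are not ranked here because CPM takes no account of transcript length.

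**Figure D1:**
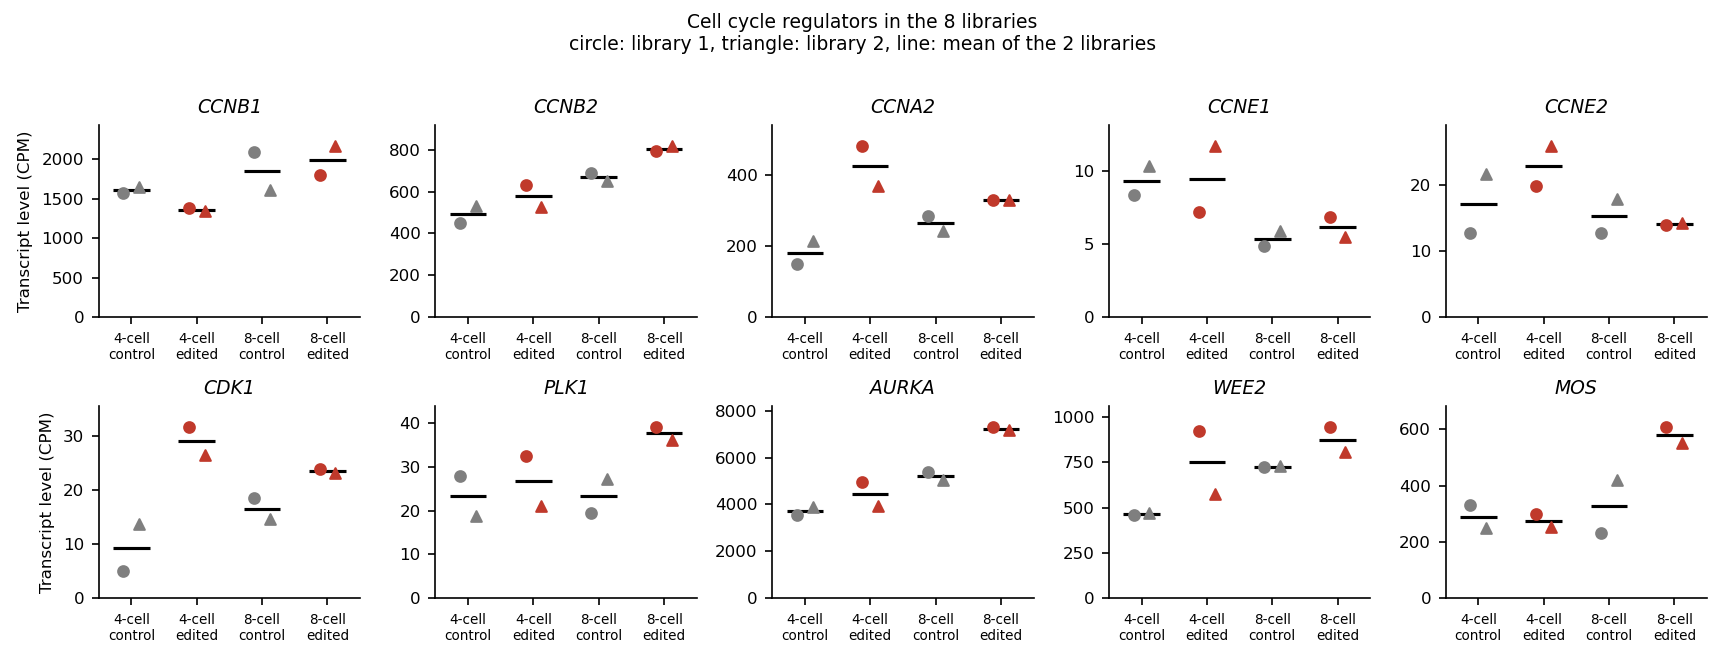
Transcript level (CPM, linear axis from 0) of each of the 10 regulators by group. Grey symbols are control and red symbols edited libraries, circles are library 1 and triangles library 2 of a group, and lines are means of 2 libraries. CCNA2 and CDK1 lie higher in both 4-cell edited libraries (481 and 368 CPM and 31.7 and 26.5 CPM) than in both 4-cell controls, and MOS is highest in both 8-cell edited libraries (608 and 553 CPM).

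Edited and control embryos were first compared at the 4-cell stage. CCNA2, CDK1 and WEE2 were higher in edited embryos and no member was called lower, with a median log2 fold change of 0.24 over the 10 members and -0.02 over all 12129 genes tested. A call is an adjusted p-value under 0.05 by limma. At this stage 44.7% of all genes tested were called, 18.9% higher and 25.8% lower, so 3 of 10 members called is below the share of all genes, and 3 of 10 called higher is near it. The same 3 members passed by edgeR and by DESeq2 on the recovered reads.

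CCNA2 encodes cyclin A2, which partners CDK2 in S phase and CDK1 on the way into mitosis. Its level was 148 and 214 CPM in the control libraries and 481 and 368 CPM in the edited ones, so the groups did not overlap. The log2 fold change was 1.23 (SE 0.23, adjusted p-value 0.000518). CDK1, the kinase that drives M phase, stood at 5.01 and 13.7 CPM in controls and at 31.7 and 26.5 CPM in edited embryos, again without overlap. Its log2 fold change was 1.67 (SE 0.38, adjusted p-value 0.00198), and it depended on the control library used: without the first it was 1.03 (adjusted p-value 0.0379). WEE2, the oocyte form of the kinase that inhibits CDK1 and is needed to leave metaphase of meiosis, was nearly equal in the 2 control libraries at 457 and 473 CPM. The edited libraries lay above them at 925 and 574 CPM, the first well above the second. The log2 fold change of 0.65 (SE 0.23, adjusted p-value 0.0325) was 0.30 without the first edited library (adjusted p-value 0.341), and the call was also lost without either control library (adjusted p-values 0.0876 and 0.0517). The WEE2 call did not hold without a filter on low values (0.0777), without the intensity trend (0.102) or with the 4-cell libraries alone (0.0542).

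The B-type cyclins did not pass the test. CCNB1, whose protein activates CDK1 for M phase entry, stood at 1569 and 1646 CPM in control and 1378 and 1336 CPM in edited embryos. It was the member with the most negative value, and although its groups did not overlap the log2 fold change of -0.24 had a 95% interval of -0.70 to 0.21 and an adjusted p-value of 0.378. CCNB2, the second B-type cyclin, stood at 452 and 529 against 632 and 524 CPM, and the second edited library fell within the range of the controls (log2 fold change 0.23, interval -0.20 to 0.67). CDK1 thus passed and its 2 B-type cyclins did not, although the difference between these genes was not tested.

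The E-type cyclins start S phase with CDK2. CCNE1 stood at 8.34 and 10.3 CPM in control and 7.17 and 11.7 CPM in edited embryos (log2 fold change -0.01, interval -0.79 to 0.76), and CCNE2 at 12.7 and 21.7 against 19.9 and 25.9 CPM (0.43, interval -0.29 to 1.14). In both genes the groups overlapped, and the intervals leave room for changes of either sign. PLK1, which activates the CDC25 phosphatases and the spindle poles, stood at 27.96 and 18.8 against 32.5 and 20.9 CPM with overlapping groups (0.18, interval -0.49 to 0.84). AURKA, the kinase of spindle poles and of spindle assembly, stood at 3570.4 and 3904 against 4943 and 3946 CPM (0.24, interval -0.22 to 0.71), where 1 edited library lay near the controls. MOS, the kinase that starts the MAP kinase cascade of cytostatic factor, stood at 331 and 248 CPM in control and 299.7 and 252 CPM in edited embryos, with overlapping groups and a log2 fold change of -0.06 (interval -0.62 to 0.50).

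Cumulus and granulosa markers moved with this comparison (above), and with their mean log2 level as a covariate no member was called by limma at the 4-cell stage (0 at an unadjusted p-value under 0.05). That fit called 1 of the 12129 genes in all, so the 0 is no observation on the members. In that fit, CCNA2 had a log2 fold change of 0.69 (adjusted p-value 0.714), CDK1 1.30 (0.650) and WEE2 0.15 (0.959). The covariate itself separated the groups, with mean log2 levels of 4.69 and 4.78 in control and 3.18 and 3.64 in edited libraries. Scaling every library to its oocyte and early embryo markers instead, which moved the median log2 fold change of all genes to -0.35 in 4-cell and -0.44 in 8-cell embryos, kept CCNA2 (0.85, adjusted p-value 0.0137) and CDK1 (1.33, 0.0137) but not WEE2 (0.26, 0.399), and gave a median of -0.15 over the 10 members.

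**Figure D2:**
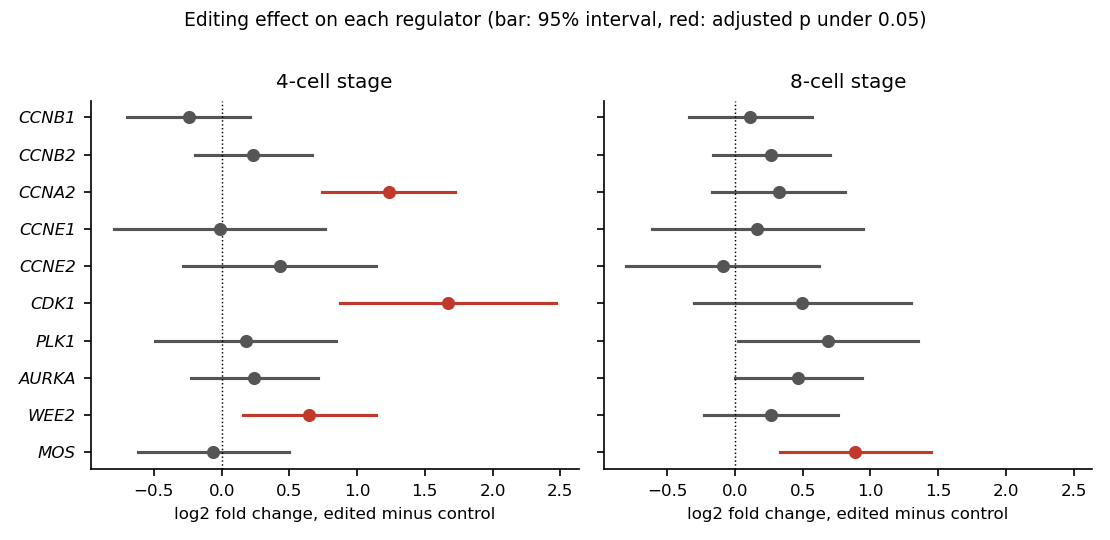
Log2 fold change (edited minus control, on the log2(CPM + 1) scale) of each regulator at the 4-cell stage and at the 8-cell stage. Points are limma estimates, bars are 95% intervals, and red marks an adjusted p-value under 0.05. CDK1 (1.67), CCNA2 (1.23) and WEE2 (0.65) are red at the 4-cell stage and MOS (0.89) at the 8-cell stage.

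In 8-cell embryos the same comparison called 1 of the 10 members, MOS, which was higher in edited embryos. Over all genes tested 15.6% were called, 1.08% higher and 14.5% lower. MOS stood at 233 and 421 CPM in the control libraries, which differed from each other, and at 608 and 553 CPM in the edited ones, both above the controls. The log2 fold change was 0.89 (SE 0.26, adjusted p-value 0.0290). Without the first control library, the lower of the 2, it was 0.46 and the call was lost. Leaving out any 1 edited library also ended the call, with log2 fold changes of 0.82 and 0.96 without those of this stage. Without either 4-cell edited library the value stayed at 0.89, since these only share the estimate of spread. Each of these fits leaves a group of 1 library and is less precise. The adjusted p-value was 0.0584 by edgeR and 0.0205 by DESeq2, and with libraries scaled to oocyte and embryo markers the log2 fold change was 0.38 (limma adjusted p-value 0.368). With the covariate of cumulus and granulosa markers it was 1.45 (adjusted p-value 0.226).

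Of the other 9 members, 8 had positive log2 fold changes at the 8-cell stage and none passed, with a median of 0.29 over the 10 members against 0.00 over all genes. Scaled to oocyte and embryo markers the median of the members was -0.21 beside -0.44 over all genes. AURKA stood at 5401 and 5052 CPM in controls and 7303 and 7155 CPM in edited embryos, without overlap (log2 fold change 0.47, interval 0.00 to 0.94, adjusted p-value 0.183). PLK1 showed the same order, at 19.4 and 27.1 against 39.03 and 36.1 CPM (0.69, interval 0.02 to 1.35, adjusted p-value 0.171). These 2 kinases and MOS are the members whose unadjusted p-values were under 0.05. CCNB2 stood at 689 and 649.8 CPM in control and 792 and 818 CPM in edited embryos (log2 fold change 0.27, interval -0.17 to 0.70). Its partner CDK1 stood at 18.5 and 14.6 against 24.00 and 23.2 CPM (0.50, interval -0.30 to 1.30). Both CDK1 and CCNB2 were thus higher in each edited library than in each control, as were CCNA2 and WEE2, but none of these 4 genes passed. CCNA2 stood at 285 and 243 against 329 and 328 CPM (0.32, interval -0.17 to 0.81). WEE2 stood at 725 and 728 against 945 and 806 CPM (0.26, interval -0.23 to 0.76). For the remaining 3 cyclins the groups overlapped. CCNB1 stood at 2087 and 1602 against 1803 and 2166 CPM (0.11), CCNE1 at 4.86 and 5.88 against 6.84 and 5.45 CPM (0.16) and CCNE2, the 1 member with a negative value, at 12.7 and 17.9 against 14.02 and 14.2 CPM (-0.09).

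Whether editing acted differently at the 2 stages was tested directly, as the 8-cell effect minus the 4-cell effect. By limma no member passed, with 3 of 10 at an unadjusted p-value under 0.05. Of all genes limma called 3.96% (1.95% with the more positive and 2% with the more negative effect at the 8-cell stage). By edgeR and by DESeq2 0 members were called as well, where 0.123% and 6.24% of all genes were. The 3 members with small unadjusted p-values were CCNA2 (difference -0.91, interval -1.61 to -0.21, adjusted p-value 0.115), CDK1 (-1.18, interval -2.31 to -0.05, 0.200) and MOS (0.95, interval 0.16 to 1.74, 0.140). CCNA2 and CDK1 thus had the larger values at the 4-cell stage and MOS at the 8-cell stage, but a call at 1 stage and not at the other did not amount to a tested difference. Without the second 4-cell control library the difference was -1.17 for CCNA2 and -1.82 for CDK1. For MOS it was 1.37 without the second 8-cell control library. Each of these fits leaves a group of 1 library and is less precise.

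Stage was then compared within each condition. In control embryos limma called 0 members between the 4-cell and the 8-cell stage, with 5 at an unadjusted p-value under 0.05. Of all genes limma called 9.02% (2.75% higher at the later stage and 6.27% lower). By edgeR and by DESeq2 0 members were called as well, where 0.588% and 9.82% of all genes were. The largest value was that of CDK1, from 5.01 and 13.7 to 18.5 and 14.6 CPM (log2 fold change 0.89, interval 0.09 to 1.69, adjusted p-value 0.128), followed by WEE2 (0.64, 0.0850) and CCNA2 (0.56, 0.124). For CDK1, WEE2, CCNA2, CCNB2 and AURKA both 8-cell control libraries lay above both 4-cell ones. CCNE1 had the most negative value, from 8.34 and 10.3 to 4.86 and 5.88 CPM (-0.70, interval -1.47 to 0.08). CCNB1, CCNE2, MOS and PLK1 had overlapping groups and log2 fold changes of 0.19, -0.13, 0.13 and -0.00. Without the second 4-cell control library, which leaves a group of 1 library, the log2 fold change was 1.54 for CDK1 and 0.82 for CCNA2. This comparison shares the 4-cell control libraries with the 4-cell editing comparison, so the 2 sets of values are not independent.

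In edited embryos MOS was the only member called by limma, where 5.18% of all genes were called (1.45% higher at the later stage and 3.73% lower). It rose from 299.7 and 252 CPM in 4-cell to 608 and 553 CPM in 8-cell embryos (log2 fold change 1.08, SE 0.26, adjusted p-value 0.0304). The adjusted p-value was 0.0679 by edgeR and 0.0103 by DESeq2, and scaled to oocyte and embryo markers the log2 fold change was 0.50 (limma adjusted p-value 0.203). Leaving out any 1 of the 4 edited libraries ended the call. The log2 fold changes were then 1.20 and 0.95 without the 4-cell and 1.01 and 1.14 without the 8-cell libraries. Each of these fits leaves a group of 1 library and is less precise. AURKA went from 4943 and 3946 to 7303 and 7155 CPM (0.71, interval 0.24 to 1.18, adjusted p-value 0.0727), and it was called higher by DESeq2 (adjusted p-value 0.0422) and when limma was fitted to the edited libraries alone (0.0257). CCNB1 went from 1378 and 1336 to 1803 and 2166 CPM (0.54, adjusted p-value 0.155). PLK1 (0.51, interval -0.16 to 1.18), CCNB2 (0.48, interval 0.05 to 0.92) and WEE2 (0.26, interval -0.23 to 0.75) had positive values, and for PLK1 and CCNB2 both 8-cell libraries exceeded both 4-cell ones. CCNA2, CDK1 and the E-type cyclins had negative values between the stages in edited embryos (-0.35, -0.28, -0.52 for CCNE1 and -0.65 for CCNE2), and none of the 4 passed. Scaled to oocyte and embryo markers, which moved the median of all genes to -0.52 and called 25.01% of them, nearly all lower, CCNA2 (-0.93, adjusted p-value 0.0170) and CCNE2 (-1.19, 0.0263) were called lower.

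Ordered by mean level, 8-cell edited embryos were highest for 6 members, CCNB1, CCNB2, PLK1, AURKA, WEE2 and MOS. For MOS the other 3 groups lay close together, between 276 and 327 CPM, and neighbouring groups did not differ beyond their spread, with the 8-cell controls the most uneven group (SD 133 CPM, n = 2). For AURKA the order was 4-cell control (3737 ± 236 CPM, SD, n = 2), 4-cell edited (4444 ± 705), 8-cell control (5227 ± 247) and 8-cell edited (7229 ± 105). CCNB2 followed the same order at 491 ± 54.9, 578 ± 76.4, 669 ± 27.4 and 805 ± 18.6 CPM. CCNA2 and CDK1 had another order, with 4-cell control lowest, then 8-cell control, 8-cell edited and 4-cell edited: CCNA2 stood at 181 ± 46.7, 264 ± 29.7, 329 ± 0.662 and 424 ± 79.6 CPM. CDK1 stood at 9.35 ± 6.14, 16.5 ± 2.74, 23.6 ± 0.555 and 29.1 ± 3.70 CPM in that order. The E-type cyclins were highest in 4-cell edited embryos, at 9.44 ± 3.20 CPM for CCNE1 and 22.9 ± 4.25 CPM for CCNE2, and overlapped the 4-cell controls.

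Other genes with the same pattern were found by the Pearson correlation of log2(CPM + 1) over the 8 libraries, among the 7435 other genes that averaged 10 CPM or more (7436 for CCNE1, which is itself below it). The libraries share groups and stages, so these values are descriptions. The pattern of CDK1 was most like those of NCK1 (r = 0.996), SOS1 (0.995) and TMEM196 (0.994). CCNA2 was most like ADD3 (0.994), RBM6 (0.993) and UNG (0.991). WEE2 was most like PHKA2 (0.996), NLRP8 (0.985) and DTNBP1 (0.981). MOS was most like CCNP (0.983), a cyclin family gene, IFFO1 (0.970) and MKS1 (0.966). For AURKA the nearest gene was another member, CCNB2 (0.982), and for CCNB2 AURKA followed LOC538929 (0.986) and RAPGEF1 (0.985).

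The members were set beside 148 other genes of the cell cycle in 9 lists, of which 144 were in the table and 142 passed the filter. At the 4-cell stage 53 rose and 20 fell with editing (51.4% called, where 44.7% of all genes were), which is 37.3% higher and 14.1% lower beside backgrounds of 18.9% and 25.8%. Their median log2 fold change was 0.44. Scaled to oocyte and embryo markers the split was 24 higher and 31 lower, or 16.9% and 21.8%, where 8.17% of all genes were called higher and 33.4% lower. In 8-cell embryos 3 rose and 7 fell (7.04% called, where 15.6% of all genes were), and 0 higher and 20 lower were called with the marker scaling, under which 0.115% of all genes were called higher and 25.4% lower. The splits with the marker scaling given for single lists stand against these same shares of all genes. The main counts of single lists stand against 18.9% higher and 25.8% lower in 4-cell and 1.08% and 14.5% in 8-cell embryos. At the 4-cell stage the share called was 31.6% for the G1/S list, 36.4% for the checkpoint and 45.5% for the Aurora and Polo list. It was 50% for CDK1 regulators and for licensing, 55% for the APC/C, 60% for MAP kinase, 62.5% for cohesion and 76.9% for other cyclins. With the covariate of cumulus and granulosa markers limma called 0 of these genes at either stage (19 and 6 at an unadjusted p-value under 0.05), where edgeR and DESeq2 without it called 58 and 54 higher and 16 and 20 lower at the 4-cell stage. Of all genes that fit called 1 in 4-cell and 68 in 8-cell embryos, so these counts of 0 are not particular to the lists.

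Of 13 other cyclins, CDKs and CDK subunits tested, 5 rose at the 4-cell stage: CKS1B and CKS2, the small subunits that bind CDK1, the B-type cyclin CCNB3, and CDK7 and MNAT1 of the CDK-activating kinase. The 5 that fell were the G1 regulators CCND1, CCND2, CCND3, CDK4 and CDK6. CKS2 stood at 883 and 762 CPM in control and 3245 and 2548 CPM in edited embryos (log2 fold change 1.81, SE 0.22, adjusted p-value 1.17e-05). CCND2, the D-type cyclin known for granulosa cell proliferation, stood at 74.5 and 66.9 against 3.82 and 4.94 CPM (-3.74, SE 0.34, adjusted p-value 1.23e-06) and at 14.8 and 22.7 against 1.46 and 1.20 CPM in 8-cell embryos (-3.06, SE 0.34, adjusted p-value 1.86e-05). Its partner CDK4 moved with it, at 73.5 and 74.2 against 7.95 and 7.46 CPM and 25.2 and 28.2 against 6.40 and 5.27 CPM, and these were the 2 calls of the list at the 8-cell stage. The granulosa markers FST and INHA fell alongside at the 4-cell stage, FST from 177 and 101 to 5.26 and 2.87 CPM and INHA from 20.4 and 13.4 to 0.231 and 1.84 CPM. They are among the 11 of 18 tested cumulus and granulosa markers that fell there. Of the same list HAS2 rose, from 24.3 and 55.4 to 132 and 124 CPM, and the rest were not called. Scaled to oocyte and embryo markers the list gave 4 higher and 6 lower in 4-cell and 0 higher and 4 lower in 8-cell embryos.

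Regulators that act on CDK1 moved in both directions. Of 18 tested inhibitors, activators and counteracting phosphatases, 5 rose at the 4-cell stage (ARPP19, CDC25C, CDKN1B, MASTL and PPP2R2A) and 4 fell (CDC14B, CDKN1C, CDKN2D and PPP1CA). MASTL and ARPP19 form the Greatwall pathway that restrains PP2A in M phase, and PPP2R2A is a regulatory subunit of that phosphatase. CDC25C, a phosphatase that activates CDK1, stood at 194 and 269 CPM in control and 636 and 508 CPM in edited embryos (log2 fold change 1.31, adjusted p-value 0.000244). PPP1CA, a catalytic subunit of protein phosphatase 1, stood at 332 and 243 against 41.4 and 47.4 CPM (-2.65, adjusted p-value 1.42e-06) and was the 1 call of the list at the 8-cell stage, at 88.96 and 127 against 57.1 and 66.6 CPM (-0.77, adjusted p-value 0.0476); edgeR and DESeq2 did not make that 8-cell call (adjusted p-values 0.108 and 0.0676), and it was lost in 5 of the 8 fits that left out 1 library, with -0.52 without the second 8-cell control. With the marker scaling the list gave 2 higher and 5 lower in 4-cell embryos.

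The other genes listed for the MOS and MAP kinase pathway, which include RAF kinases that act beside MOS on the same MAP2K enzymes, gave 3 higher (BRAF, MAP2K1 and RPS6KA3) and 3 lower (ARAF, MAP2K2 and RPS6KA1) of 10 at the 4-cell stage. RPS6KA3, an RSK kinase, stood at 11.5 and 25.5 CPM in control and 35.8 and 45.4 CPM in edited embryos (1.18, adjusted p-value 0.0147). Without the first control library it was 0.64 (adjusted p-value 0.199), and without the second edited library the adjusted p-value was 0.112. MAP2K2, a kinase that activates ERK, stood at 33.6 and 18.9 against 6.25 and 4.21 CPM (-2.10, adjusted p-value 0.000332). In 8-cell embryos, where MOS itself was higher, limma called 0 of the 10 (1 at an unadjusted p-value under 0.05), as did edgeR and DESeq2. With the marker scaling the split was 0 higher and 3 lower in 4-cell and 0 higher and 1 lower in 8-cell embryos.

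Among the 20 genes of the anaphase-promoting complex (APC/C) and its regulators, 7 rose and 4 fell at the 4-cell stage, the latter being ANAPC5, ANAPC11, CDC16 and UBE2S. Both EMI inhibitors of the complex were among the higher ones: FBXO5 (EMI1) stood at 174 and 201 CPM in control and 524 and 516 CPM in edited embryos (1.47, adjusted p-value 6.91e-05), and FBXO43 (EMI2), the arrest factor of the egg, at 38.5 and 50.4 against 128 and 135 CPM (1.55, adjusted p-value 0.000107). UBE2S, the enzyme that extends ubiquitin chains on APC/C substrates, stood at 210.4 and 157 against 54.03 and 33.5 CPM (-2.07, adjusted p-value 6.63e-05). In 8-cell embryos ANAPC15 rose, from 172 and 229 to 325 and 403 CPM (0.86, adjusted p-value 0.0225), and ANAPC5 and CDC16 fell. CDC16, a subunit of the complex, was lower at both stages, at 118 and 96.3 against 38.4 and 44.9 CPM and 77.5 and 57.9 against 33.5 and 35.3 CPM (-1.34 and -0.94, adjusted p-values 0.000501 and 0.0156). Both 8-cell calls were lost without the first 8-cell control library (ANAPC15 0.66, adjusted p-value 0.181, and CDC16 -0.74, 0.162) or either 8-cell edited library (adjusted p-values 0.0532 and 0.220 for ANAPC15 and 0.116 and 0.0827 for CDC16). With the marker scaling the split of the list was 3 higher and 6 lower in 4-cell and 0 higher and 3 lower in 8-cell embryos.

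Spindle checkpoint genes passed in 1 direction at the 4-cell stage, with 4 of 11 higher (BUB1, BUB1B, KNTC1 and TTK) and a median of -0.19 over the list, which has the opposite sign. TTK (MPS1), the kinase that starts checkpoint signalling, stood at 53.5 and 63.1 CPM in control and 138 and 213 CPM in edited embryos (1.55, adjusted p-value 0.000134). With the marker scaling 3 higher and 4 lower were called. In 8-cell embryos limma called 0 (2 at an unadjusted p-value under 0.05), edgeR 0 and DESeq2 1 (MAD2L1BP).

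The other Aurora and Polo kinases and their partners gave 5 higher calls of 11 at the 4-cell stage, BORA, HASPIN, PLK2, PLK4 and TPX2, of which BORA activates PLK1 and TPX2 activates AURKA. BORA stood at 231 and 235 CPM in control and 498 and 483 CPM in edited embryos (1.07, adjusted p-value 0.000498). PLK1 and AURKA themselves did not pass there (above). In 8-cell embryos the 2 calls were AURKB and CDCA8, both of the chromosomal passenger complex, which corrects chromosome attachment. AURKB stood at 165 and 182 against 363 and 326 CPM (0.98, SE 0.21, adjusted p-value 0.00385) and CDCA8 at 566 and 606 against 1002 and 1072 CPM (0.82, SE 0.22, adjusted p-value 0.0139). Both also rose from the 4-cell to the 8-cell stage in edited embryos (1.18 and 1.07, adjusted p-values 0.00757 and 0.0119). The 8-cell call of AURKB was lost without the first 8-cell edited library (adjusted p-value 0.0647). With the marker scaling the list gave 2 higher and 0 lower in 4-cell and 0 higher and 1 lower in 8-cell embryos.

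Genes of sister chromatid cohesion had the highest median of the 9 lists at the 4-cell stage, 1.04 on the log2 scale, with 10 of 16 tested genes higher: the cohesin subunits RAD21, SMC1B, SMC3 and STAG1, the loader NIPBL, the regulators PDS5A, PDS5B and WAPL, the protector SGO2 and securin (PTTG1). Their log2 fold changes lay between 1.02 and 1.72, and with the marker scaling 7 higher and 1 lower were called. SMC1B, a cohesin subunit of meiotic cells, stood at 173 and 179 CPM in control and 525 and 649 CPM in edited embryos (1.72, SE 0.22, adjusted p-value 1.86e-05). At the 8-cell stage limma called 0 of the 16 (3 at an unadjusted p-value under 0.05), edgeR 0 and DESeq2 1 (STAG2), and SMC1B stood at 317 and 229 against 307 and 310.5 CPM. The test of the difference between stages called 6 of the 16, each with the smaller effect at the 8-cell stage (NIPBL, PDS5B, RAD21, SMC1B, SMC3 and WAPL), where 3.96% of all genes were called. By edgeR this test called 0 of the 16, where 0.123% of all genes were called, and by DESeq2 7, where 6.24% were. The limma calls were lost without either edited library of either stage or without the first 8-cell control library. Most were lost without the first 4-cell control library. Each of those fits leaves a group of 1 library and is less precise.

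Of 24 replication licensing and DNA damage checkpoint genes, 11 rose at the 4-cell stage, among them ORC2 to ORC6, the licensing inhibitor GMNN, and CHEK1 and ATR, and 1 fell. Of all genes 18.9% were called higher and 25.8% lower there. ORC3, of the origin recognition complex, stood at 250.3 and 304 CPM in control and 616 and 726 CPM in edited embryos (1.27, adjusted p-value 0.000187). The gene that fell was CDC45, of the replicative helicase, at 10.3 and 15.2 against 7.52 and 4.27 CPM (-1.01, adjusted p-value 0.0382), which edgeR did not call and which was lost without the second control or the second edited library (adjusted p-values 0.213 and 0.231). None passed at the 8-cell stage: 0 were called by limma (1 at an unadjusted p-value under 0.05), edgeR and DESeq2. The 19 ubiquitin ligase (SCF) and G1/S genes gave 3 higher (E2F7, FBXW7 and RB1) and 3 lower (CUL1, E2F4 and TFDP1) at the 4-cell stage. That is 31.6% called, below the 44.7% of all genes. RB1, the retinoblastoma protein gene, stood at 3.48 and 7.10 against 15.6 and 13.6 CPM (1.37, adjusted p-value 0.00660, and 0.104 without the first control library). CUL1, the scaffold of SCF ligases, stood at 44.8 and 26.7 against 9.66 and 9.21 CPM at the 4-cell and 13.8 and 20.7 against 4.03 and 6.17 CPM at the 8-cell stage (-1.77 and -1.58, adjusted p-values 0.000909 and 0.00542), where E2F6 also fell. The 8-cell call of CUL1 was lost without the second control or the first edited library of that stage (adjusted p-values 0.0861 and 0.0716). With the marker scaling the licensing list gave 2 higher and 2 lower in 4-cell and 0 higher and 3 lower in 8-cell embryos, and the G1/S list 1 higher and 4 lower and 0 higher and 4 lower.

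**Figure D3:**
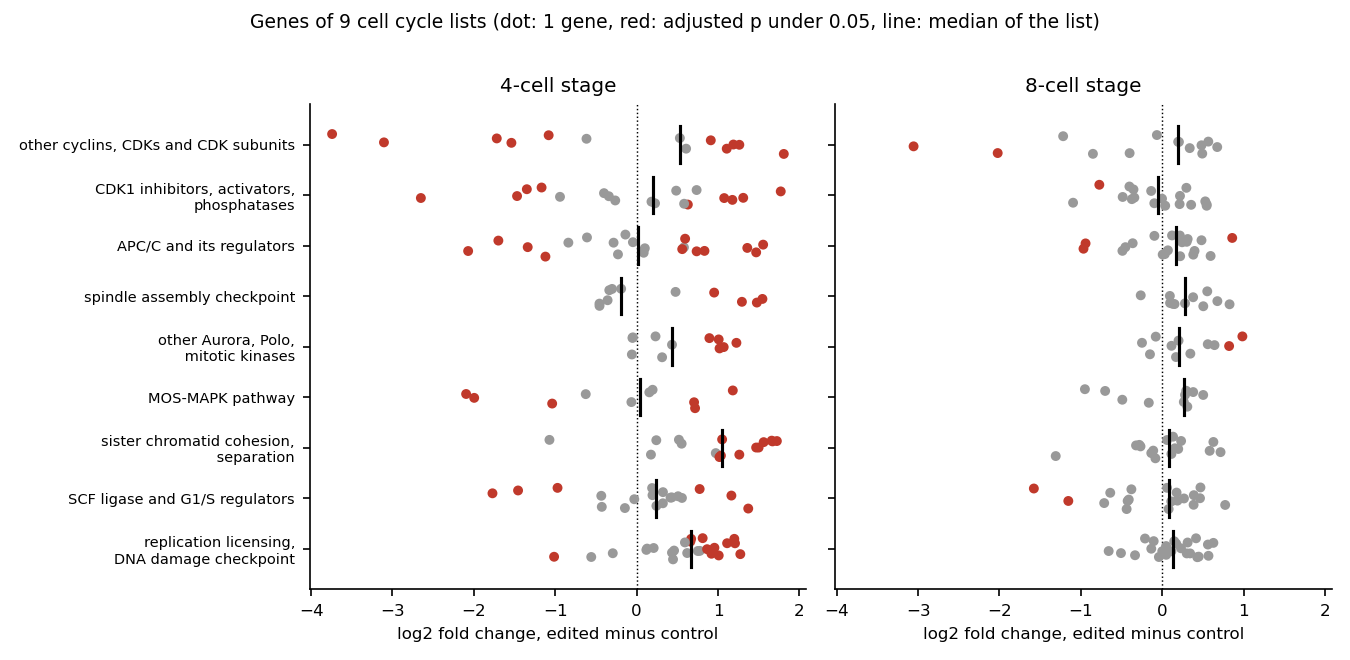
Log2 fold change (edited minus control, log2(CPM + 1) scale) of every tested gene in the 9 lists, at the 4-cell stage and at the 8-cell stage. Each dot is 1 gene, red marks an adjusted p-value under 0.05 by limma, vertical lines are list medians, and vertical jitter has no meaning. At the 4-cell stage the cohesion list lies farthest to the right (median 1.04) and CCND2 farthest to the left (-3.74), and at the 8-cell stage the medians lie between -0.05 and 0.28.

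Between the stages, 12 of these 142 genes rose and 5 fell from the 4-cell to the 8-cell stage in control embryos, where 9.02% of all genes were called. The higher ones included the kinase cofactors BORA and TPX2, CCNB3, CKS1B, CKS2 and CDC25C, and the lower ones were CCND2, CDC14B, CDK4, PPP1CA and UBE2S. CKS2 stood at 883 and 762 CPM in 4-cell and 1540.1 and 1881 CPM in 8-cell embryos (1.05, adjusted p-value 0.0152), and PPP1CA at 332 and 243 and 88.96 and 127 CPM (-1.41, adjusted p-value 0.00989). Without the first 4-cell control or the first 8-cell control library 0 of the 142 were called in controls, and without the second 4-cell control library 36. Over all genes these fits called 13, 25 and 2114. In edited embryos 6 were higher (ANAPC11, AURKB, CDCA8, MAD2L1BP, MAD2L2 and TRIP13) and 4 lower (DBF4, PPP1CB, RAD21 and SMC1B), where 5.18% of all genes were called. Leaving out 1 library changed the number of the 142 called in edited embryos, and the number of all genes called there changed as well. The 4-cell control and 4-cell edited libraries each enter an editing comparison too, so these values are not independent of those above. The test of the difference of the editing effect called 14 of the 142, 3 with the more positive (ANAPC11, PPP1CA and UBE2S) and 11 with the more negative effect at the 8-cell stage, where 3.96% of all genes were called. The number of calls of this test depended on the libraries fitted, for the 142 as for all genes. Each fit without 1 library leaves a group of 1 library and is less precise. By edgeR 0 of the 142 were called and by DESeq2 18.

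**Figure D4:**
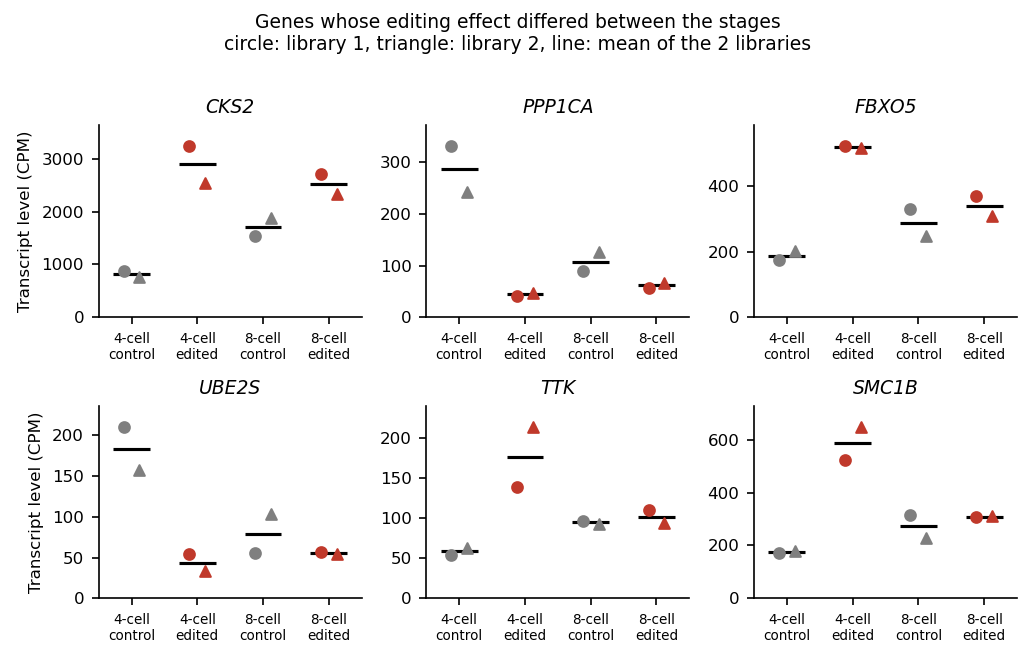
Transcript level (CPM, linear axis from 0) of the 6 named genes for which the effect of editing differed between the stages, by group. Grey symbols are control and red symbols edited libraries, circles are library 1 and triangles library 2, and lines are means of 2 libraries. The 4-cell control libraries lie lowest for CKS2 (883 and 762 CPM), FBXO5, TTK and SMC1B and highest for PPP1CA (332 and 243 CPM) and UBE2S. For SMC1B the 4-cell edited libraries stand apart as well.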

How the data were processed

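Polyadenylated RNA of pooled embryos was amplified as cDNA and tagmented, per the labels' protocols. Trim Galore 0.6.7, HISAT2 2.2.1 and featureCounts 2.0.1 are named in the submitters' processing notes; the genome build, annotation and strand setting are not given in the sources used here. The deposited values are CPM made by the authors, although the table is named for raw counts: all positive values of a column are whole multiples, within 0.05 reads, of 1 step, so whole reads were recovered for 100% of them. Columns used sum to 992528 to 1007024 CPM, and 3 reads correspond to 0.0858 to 0.0899 CPM. The other 4 of 12 columns match no sample given here and were not used. Reads carry no molecular identifiers, so counting error is a lower limit on error. Of the table's symbols 16571 matched RefSeq's cattle gene list, including all 10 members as protein-coding genes; no sequences were used here.

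Libraries were grouped by their titles. limma 3.58.1 (R 4.3.3) with an intensity trend was fitted to log2(CPM + 1) of the 12129 genes that averaged 1 CPM or more, with 1 mean per group over all 8 libraries, and p-values were adjusted over all genes (Benjamini-Hochberg). A log2 fold change on this scale understates changes of weakly expressed genes. The procedure was tested on simulated data. Alternatives were pseudocounts of 0.5 and 5 CPM, no filter or a mean of at least 10 CPM, edgeR 4.0.16 (quasi-likelihood, 14629 genes) and DESeq2 1.42.0 on the recovered reads, TMM scaling, scaling to the geometric mean of oocyte and early embryo markers, a covariate of cumulus and granulosa markers, only the libraries compared, no trend, a replicate block and leaving out each library.

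The members and lists were chosen with earlier results of these data known. All members are named. From each list the rule took, at each stage and in each direction, the called gene with the smallest p-value among those with a mean of at least 10 CPM and groups that do not overlap, and for each member the 3 most correlated genes, of which part is printed. Other genes are named because they make up a small count or belong to a group described, and were chosen after their values were seen. The titles number the libraries 1 and 2 without saying what a number stands for.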

Additional observations from a re-analysis of the deposited data

Results flagged for a closer look

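For 6 of the named genes the effect of editing itself differed between the stages, taken as the 8-cell minus the 4-cell log2 fold change, and for none of the 10 members did it do so. By limma the difference was -1.24 for CKS2 (adjusted p-value 0.0393), -1.23 for FBXO5 (adjusted p-value 0.0393), -1.45 for TTK (adjusted p-value 0.0371), -1.53 for SMC1B (adjusted p-value 0.0246), 1.88 for PPP1CA (adjusted p-value 0.0206) and 1.62 for UBE2S (adjusted p-value 0.0474). The 4-cell and 8-cell log2 fold changes behind these were 1.81 and 0.57 for CKS2, 1.47 and 0.24 for FBXO5 and 1.55 and 0.10 for TTK. They were 1.72 and 0.20 for SMC1B, -2.65 and -0.77 for PPP1CA and -2.07 and -0.45 for UBE2S. These estimates had the same sign at both stages and the larger size in 4-cell embryos. At the 8-cell stage limma called only PPP1CA of the 6. All 6 were named for a small p-value at the 4-cell stage, a choice that favours larger values there. The difference was called for none of the 6 by edgeR, or by limma without a filter on low values or without the intensity trend. The same held with libraries scaled to oocyte and embryo markers and with the covariate of cumulus and granulosa markers. In that order these fits called 18, 0, 0, 23 and 17 of all genes, where the main fit called 480. These losses are thus not particular to the 6. Over all alternatives the difference lay between -1.42 and -1.07 for CKS2, -1.44 and -1.01 for FBXO5 and -1.76 and -1.14 for TTK. It lay between -1.76 and -1.29 for SMC1B, 1.63 and 2.13 for PPP1CA and 1.18 and 2.06 for UBE2S. The 6 calls were also lost without either edited library of either stage, or without the first 8-cell control library. Each of those fits leaves a group of 1 library and is less precise. Without the first 4-cell control library CKS2, FBXO5, TTK and UBE2S were not called either, and without the second 8-cell control library CKS2 was not. TMM scaling did not call FBXO5 and UBE2S, and a pseudocount of 0.5 CPM did not call UBE2S. The highest adjusted p-value over all alternatives was 0.223, for UBE2S. The 4-cell control libraries lie lowest or highest in these genes, although for SMC1B the 4-cell edited libraries stand apart as well. These controls also have the highest summed level of cumulus and granulosa markers (1314 to 1794 CPM against 649 to 920.1 CPM). The part of that in these differences was not tested.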

How the results depend on the processing

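For editing 3 members were called in 4-cell and 1 in 8-cell embryos. Their number was 1 between stages in edited embryos, and 0 for stage in controls and for the difference of the editing effect. The count at the 4-cell stage was 0 with the covariate of cumulus and granulosa markers (that fit called 1 of all genes), and 2 or 3 under the other alternatives, the call lost being that of WEE2. The count at the 8-cell stage was 0 with that covariate, without a filter on low values, by edgeR, without the intensity trend and with libraries scaled to oocyte and embryo markers. Between stages in edited embryos it was 0 without a filter, by edgeR and without the trend, and 2 by DESeq2, when only the libraries compared were fitted and with the crossed block described next (MOS and AURKA, both higher); it was also 2 with the marker scaling, but CCNA2 and CCNE2, both lower. In controls it was 1 with the marker scaling (CCNE1). Leaving out 1 library gave 2 to 3 calls at the 4-cell stage, 0 to 1 at the 8-cell stage, 0 to 1 between stages in edited embryos, 0 to 2 in controls and 0 to 2 for the difference; a group left with 1 library was assumed to vary like the others. Fitting only the libraries compared gives no value for the difference. Of the wider lists 73 genes were called at the 4-cell stage, 0 with the covariate and 47 to 74 with 1 library left out, the lowest without the first 4-cell control. At the 8-cell stage 10 were called, 0 with the covariate, 6 without a filter and without the trend, 20 with the marker scaling and 3 to 11 with 1 library left out. Between stages in controls 17 genes of the wider lists were called, 0 without a filter and with the covariate, 3 by edgeR, without the trend and with only the libraries compared, and 0 to 36 with 1 library left out. In edited embryos these were 10, 0 without a filter, 1 without the trend, 18 by DESeq2, 24 with only the libraries compared, 47 with the marker scaling and 0 to 16 with 1 library left out. For the difference they were 14, 0 by edgeR, without a filter, without the trend, with the marker scaling and with the covariate, and 0 to 31 with 1 library left out. No called value of a member or of the 18 genes named by rule changed sign under any alternative; the other genes named were not followed in this way. The cause of these changes was not tested. Over all genes the difference was called for 480 in the main fit, 18 by edgeR, 0 without a filter and 0 without the trend. It was called for 23 with the marker scaling and 17 with the covariate. Between stages in controls the main fit called 1094 of all genes and edgeR 86. There limma called 0 without a filter, 9 with the covariate and 180 without the trend.

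Same-numbered libraries deviated together with a correlation of 0.11 at the 4-cell stage, -0.09 at the 8-cell stage, -0.30 between the control groups and 0.02 between the edited groups, so they share a number and are not shown to be pairs. With the replicate block 3 members were called at the 4-cell stage, 1 at the 8-cell stage, 1 between stages in edited embryos, 0 in controls and 0 for the difference, and 69 and 7 genes of the wider lists at the 2 stages and 9 for the difference. The block did not make the calls of a difference for CKS2, FBXO5 and UBE2S, nor the 8-cell call of PPP1CA (adjusted p-value 0.0611). With the numbers of the 8-cell controls crossed in the block, an alternative chosen after seeing the data, these were 3, 1, 2, 0, 0, 80 and 12.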

Other observations

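REC8, the meiosis-specific kleisin of cohesin, had 0 to 6 reads per library. Its meiotic partners SMC1B and STAG3 had 5978 to 22181 and 261 to 545 reads, and the mitotic kleisin RAD21 had 1841 to 8474. CCNF had 0 to 47 reads and, like REC8, did not reach the filter. Securin (PTTG1), which holds separase inactive, had 194264 to 503922 reads and rose between the stages in controls from 5629 and 7281 to 13764 and 11128 CPM (log2 fold change 0.95, limma adjusted p-value 0.0290). These genes were chosen after their values were seen.

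CDKN1B (p27), an inhibitor of cyclin-dependent kinases, had the largest positive log2 fold change of its list with editing in 4-cell embryos, 1.77 (limma adjusted p-value 0.00158), from 1.94 and 3.02 CPM in control to 12.4 and 9.27 CPM in edited libraries, so that a CDK inhibitor and CDK1 were both higher in these libraries. At the 8-cell stage it stood at 2.86 and 3.70 against 4.96 and 3.11 CPM (0.22, adjusted p-value 0.761). CDC20, the APC/C activator of anaphase, stood at 89.3 and 92.7 against 70.2 and 49.98 CPM at the 4-cell stage (-0.61, adjusted p-value 0.0573) while both EMI inhibitors were higher, and at 71.03 and 94.9 against 101 and 117 CPM at the 8-cell stage (0.40, adjusted p-value 0.334). CDC20 and CDKN1B were chosen for these values, and whether the genes differ from one another was not tested.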
